A study of Mus musculus with 3 samples.

Results

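The 40 genes described here encode autophagy machinery and its receptors, out of 55536 mouse genes in the deposited gene tables. They were chosen by symbol, from a list spanning the steps from initiation to cargo recognition, and each symbol matched 1 gene. Polyadenylated RNA was measured in 3 samples of bone-marrow-derived macrophages of the inbred mouse strain C57BL/6J, with no further allele named. All 3 samples had the same history: lipid A at 100 ng/ml for 12 hours, a washout of 12 hours, and a renewed exposure to lipid A at 100 ng/ml for 180 minutes. Lipid A, the lipid portion of endotoxin, activates Toll-like receptor 4. Other label fields give the agent as lipoprotein A, a protein, and this conflict could not be settled. Sex and age were not collected. The samples form 1 group, labelled biological replicates 1, 2 and 3, and carry 1 donor record. No source used here says that they came from separate animals or cultures, so the spread between them may be technical. Cells without lipid A, or with it once, were not analysed here, so the values below are levels in this state and not responses to lipid A.

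Autophagy encloses cytoplasm in a growing double membrane, the phagophore, which closes into an autophagosome and fuses with lysosomes. The ULK kinase complex and a class III PI3-kinase complex start the process, lipid-transfer and scrambling proteins extend the membrane, and ubiquitin-like enzymes attach ATG8 proteins (the LC3 and GABARAP families) to its lipids. Cargo receptors such as SQSTM1 (p62) bind ubiquitinated material on one side and ATG8 proteins on the other. In macrophages the pathway removes damaged organelles and intracellular bacteria, and several of its proteins also act in Toll-like receptor signalling and in phagocytosis.

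Replicate 1 held 23418690 expected counts in all, replicate 2 held 36863611 and replicate 3 held 37728915. The macrophage markers Adgre1, Cd68, Csf1r, Lyz2, Itgam, Fcgr1 and Mertk were all expressed, with means between 69.8 and 10782 TPM (transcript abundance scaled to library depth and divided by transcript length). None of the 4 T and NK cell, 3 B cell, 3 erythroid or 3 fibroblast markers reached 1 TPM in every replicate. The neutrophil marker sum stood apart in replicate 2: the 6 genes summed to 12.5, 108 and 11.0 TPM in replicates 1, 2 and 3. S100a8, at 6.84, 39.35 and 5.36 TPM, and S100a9, at 4.20, 58.0 and 5.10 TPM, made most of it in replicate 2. Ltf and Ngp were also highest in replicate 2, at 1.73 and 7.78 TPM, while Camp and Mpo were below 1 TPM in every replicate. Of the 2 endothelial markers, Pecam1, which myeloid cells also carry, was at 2.03 ± 0.38 TPM (SD, n = 3) and Cdh5 at 0.667 ± 0.251 TPM.

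All 40 genes were expressed, meaning at least 1 TPM in each of the 3 replicates. The same held for 44.3% of 22028 protein-coding genes and 18.9% of all genes. The median over the 40 of log2(TPM + 1) was 4.47, 4.30 and 4.40 in the 3 replicates, or 4.39 ± 0.09 (SD, n = 3), against 4.25 ± 0.02 over the 9749 expressed protein-coding genes. As a group the 40 genes thus sat near the middle of the expressed genes, with 21 of them above that middle and 19 below. The levels covered a wide range: 4 genes had a mean of at least 100 TPM (Sqstm1, Gabarap, Vmp1 and Tax1bp1), 27 were between 10 and 100, and 9 were below 10. The 40 genes together summed to 4012, 3167 and 3969 TPM, and Sqstm1 alone was the largest part of that sum in each replicate.

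**Figure D1:**
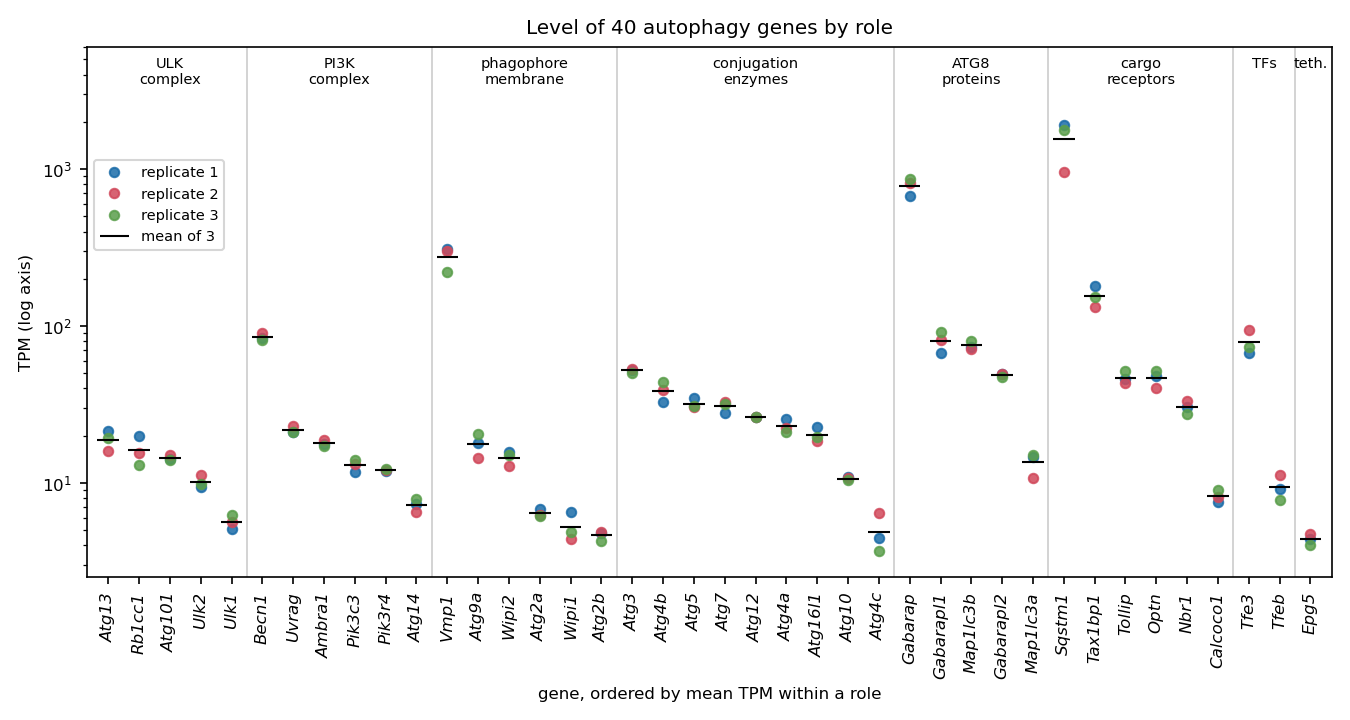
TPM (log axis) of each of the 40 genes in replicates 1, 2 and 3 (points) with the mean of 3 (bar), grouped by role; TFs are transcription factors and teth. is tethering. Sqstm1 and Gabarap stand highest, at means of 1548 and 784 TPM, and Epg5 has the lowest mean, at 4.39 TPM, with values that overlap those of Atg2b and Atg4c.

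Median levels differed by step, while single genes of the steps overlapped. Genes of initiation (the 5 of the ULK complex and the 6 of the PI3-kinase complex) had the lower medians, the 9 conjugation enzymes stood between, and the 6 cargo receptors and 5 ATG8 proteins were higher. The median log2(TPM + 1) of initiation was 3.95 ± 0.06 (SD, n = 3), that of conjugation enzymes 4.77 ± 0.007, that of cargo receptors 5.57 ± 0.16 and that of ATG8 proteins 6.20 ± 0.13. Initiation minus conjugation enzymes was -0.85, -0.76 and -0.87 in the 3 replicates, a mean difference of -0.82 ± 0.06 on the log2 scale. Initiation minus cargo receptors was -1.65, -1.41 and -1.82, a mean of -1.63 ± 0.21. Conjugation enzymes minus cargo receptors was -0.81, -0.65 and -0.95, a mean of -0.80 ± 0.15. Initiation minus ATG8 proteins was -2.15, -2.17 and -2.45, a mean of -2.26 ± 0.17. Each of these 4 differences had the same sign in all 3 replicates and was larger than its SD between replicates. They carry no p-value, because the genes of a step are not replicates. The SDs are those of a median between replicates and do not measure the spread of genes within a step. Mean TPM of single genes ran from 5.65 to 85.2 in initiation and from 4.87 to 52.1 in conjugation enzymes. It ran from 8.25 to 1548 in cargo receptors and from 13.5 to 784 in ATG8 proteins. The median of a step hides a single abundant gene: as a mean over members, the gap between conjugation enzymes and cargo receptors was -1.64 ± 0.18, since Sqstm1 then counts in full, and that between initiation and conjugation enzymes shrank to -0.52 ± 0.03. The 6 phagophore membrane genes had the lowest median of the larger groups, 3.42 ± 0.09, although Vmp1 among them was the third most abundant of the 40 genes. That rank of Vmp1 counts all annotated transcripts. Coding transcripts held 43.7% of Vmp1 TPM and 99.6% of the TPM of Tax1bp1, the next gene, so it does not carry over to coding transcripts alone.

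The ULK complex phosphorylates its partners when nutrients are short, and ATG13, ATG101 and RB1CC1 (FIP200) scaffold it. By mean TPM the complex ranged from Ulk1, the kinase itself, to Atg13. Ulk1 was at 5.11, 5.62 and 6.21 TPM (mean 5.65 ± 0.55, SD, n = 3), and Atg13 at 21.5, 15.9 and 19.3 TPM (mean 18.9 ± 2.8). The 3 values of Atg13 lay above those of Ulk1 without overlap. Ulk2, a paralogous kinase, was at a mean of 10.2 TPM, and the log2 ratio of Ulk1 to Ulk2 was -0.89, -1.01 and -0.66, a mean of -0.85 ± 0.18. Ulk2 transcripts were thus more abundant than Ulk1 transcripts in all 3 replicates. Rb1cc1 was at 20.0, 15.4 and 13.0 TPM, highest in replicate 1, and Atg101 at a mean of 14.4 ± 0.6 TPM. The values of Rb1cc1 and Atg13 overlapped. In the FASTQ-made tables Rb1cc1 was the higher (24.5 ± 1.7 against 16.0 ± 2.6 TPM), so the top of the complex is not resolved with all annotated transcripts counted. Coding transcripts held 63.0% of Rb1cc1 TPM and 89.9% of Atg13 TPM in the alignment tables. In the FASTQ-made tables these shares were 44.2% and 87.2%, so the higher value of Rb1cc1 there does not carry over to coding transcripts alone.

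For the ratio of Ulk1 to Ulk2 and 16 other ratios between partners or paralogs, the 2 genes were compared within each sample. All 17 log2 ratios had 1 sign in the 3 replicates. In an exact two-sided sign-flip permutation test over 3 replicates the smallest p is 0.25, and each ratio had this value (0.25 after Benjamini-Hochberg adjustment over 17), so the test cannot reach 0.05.

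The PI3-kinase complex makes the lipid signal on the phagophore. Becn1, its Beclin 1 scaffold, was its most abundant gene, at 83.5, 90.9 and 81.2 TPM (mean 85.2 ± 5.1, SD, n = 3). The lowest was Atg14, which directs the complex to autophagosome formation, at 7.32, 6.50 and 7.96 TPM (mean 7.26 ± 0.73). Uvrag, which takes the place of ATG14 in an endosomal form of the complex, was at a mean of 21.8 ± 1.3 TPM. The log2 ratio of Atg14 to Uvrag was -1.52, -1.84 and -1.40, so Uvrag was 3.00-fold higher on average. The FASTQ-made tables gave a larger gap, a log2 ratio of -2.23 ± 0.25. Coding transcripts held 96.0% of Uvrag TPM in the alignment tables and 36.1% in the FASTQ-made tables, where they held 99.4% of Atg14 TPM. The larger gap thus counts all annotated transcripts and does not carry over to coding transcripts alone. The catalytic subunit Pik3c3 (VPS34) had a mean of 13.1 TPM and its regulatory kinase Pik3r4 a mean of 12.1 ± 0.2 TPM, while Ambra1, a regulator of Beclin 1, was at 17.9 ± 0.8 TPM. Becn1 stood 6.54-fold above Pik3c3, with log2 ratios of 2.82, 2.78 and 2.53. This ratio, and the rank of Becn1 as most abundant, count all annotated transcripts. Coding transcripts held 14.3% of Becn1 TPM and 100% of Pik3c3 TPM, so neither carries over to coding transcripts alone.

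That level of Becn1 is a sum over 17 annotated transcripts, which differ in what they encode. Transcripts annotated as protein coding held 13.5%, 13.4% and 16.1% of Becn1 TPM (mean 14.3 ± 1.5%, SD, n = 3). Transcripts annotated for nonsense-mediated decay held 51.4 ± 2.7% and retained-intron transcripts 34.2 ± 3.8%. In the second kind of transcript table, made from FASTQ files, the coding share was 7.1 ± 1.1%. Among the 40 genes, 2 had a mean of under 50% of their TPM in coding transcripts (Becn1 and Vmp1), against 5.94% of the expressed protein-coding genes. In the FASTQ-made tables the count was 4, against 7.29% of the expressed protein-coding genes: Becn1, Vmp1 at 43.6%, Rb1cc1 at 44.2% and Uvrag at 36.1%. The leading transcript, Becn1-201, is annotated for nonsense-mediated decay and held 30.3%, 38.3% and 38.9% of the gene's TPM, while Becn1-205, with the longest coding sequence (1344 bases), held 8.7%, 9.2% and 12.7%. Becn1-201 extends an exon, and its reading frame meets a stop within the extension. The 64 bases from the start of the extension through that stop lie at chr11:101296194-101296257 (mm10, minus strand). Any part of the exon past the stop is not counted in these 64 bases. The sequence shows how the frame ends, with 15 spliced bases before the extension and the stop codon in capitals:
Becn1-201 exon extension: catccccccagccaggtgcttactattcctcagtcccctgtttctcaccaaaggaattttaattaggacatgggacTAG
The 4 Becn1 transcripts that hold all 64 bases carried 40.8%, 47.0% and 44.0% of the gene's TPM. The 7 that span the place without them carried 31.5%, 27.8% and 30.5%, and 6 others do not reach them or hold them in part. These tables divide reads among whole transcripts and give no reads across exon junctions, and Becn1-201 and Becn1-205 differ in other exons too, so the extension was not measured on its own. Cntd1 lies on the opposite strand and shares 43.9% of the annotated exonic bases of Becn1, but its own level was 0.0633 TPM. Whether counting used strand is not given in the sources used here.

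**Figure D2:**
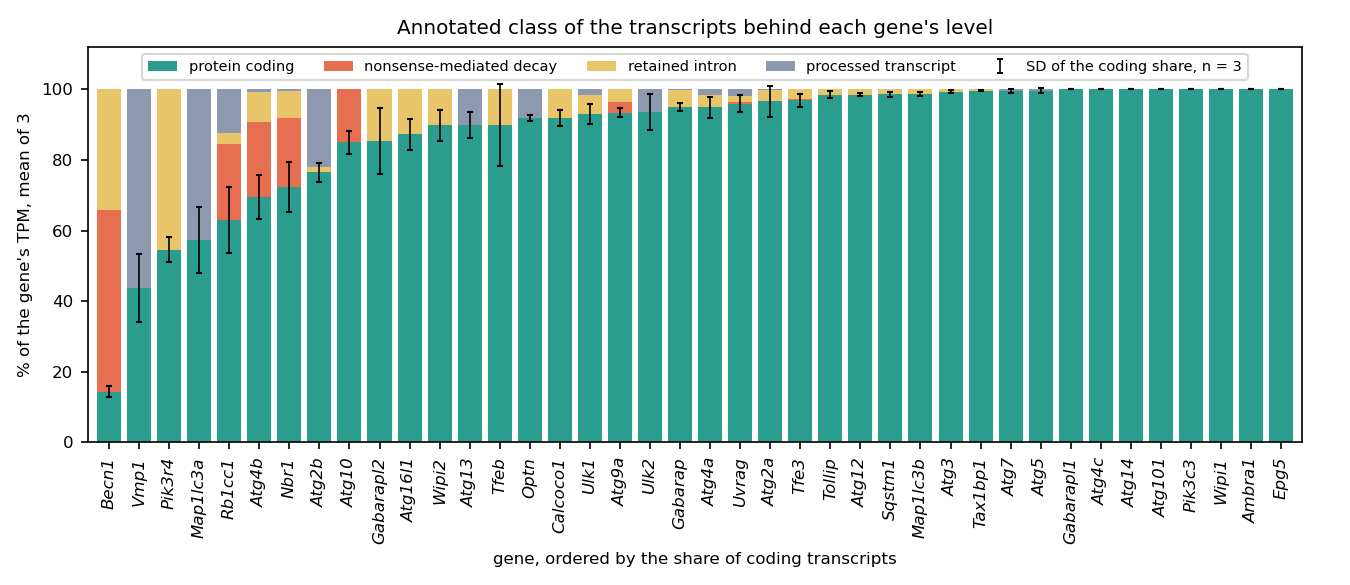
Percent of each gene's TPM (mean of 3 replicates, bars from 0) in transcripts annotated as protein coding, for nonsense-mediated decay, with a retained intron or as processed transcripts, with the SD of the coding share. Becn1 is lowest in coding share, at 14.3%, followed by Vmp1 at 43.7%, and most of the other genes lie above 80%.

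Phagophore membrane genes supply and remodel lipid. ATG9A and VMP1 are lipid scramblases, ATG2A and ATG2B transfer lipid, and WIPI1 and WIPI2 bind the lipid made by the PI3-kinase complex. Vmp1 was the highest, at 311, 301 and 220 TPM (mean 277 ± 50, SD, n = 3), with replicate 3 the lowest. Atg2b was the lowest, at 4.83, 4.85 and 4.25 TPM (mean 4.64 ± 0.34). Its paralog Atg2a, at 6.40 ± 0.34 TPM, was 1.38-fold higher, with log2 ratios of 0.49, 0.37 and 0.53. Wipi2, which recruits ATG16L1, exceeded Wipi1 by 2.79-fold, with a log2 ratio of Wipi1 to Wipi2 of -1.27, -1.55 and -1.62. Atg9a was at a mean of 17.7 ± 3.1 TPM. Of its 31-base sequences, 32.0% also occur elsewhere, mostly in the overlapping gene Gm29253 at 0.180 TPM.

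By the mean of 3 replicates, Vmp1 is the other gene whose leading transcript is not coding. This applied to 2 of the 40 genes and to 5.65% of the expressed protein-coding genes. The leader, Vmp1-206, is a processed transcript at the end of the gene and held 34.1%, 27.3% and 17.3% of Vmp1 TPM, lowest in replicate 3. The only transcript with the longest coding sequence, Vmp1-201, was steadier, at 23.3%, 25.2% and 26.7%. In replicate 3 it stood above Vmp1-206, so which of these transcripts leads is not resolved. Coding transcripts together held 39.2%, 37.1% and 54.8% of Vmp1 TPM (mean 43.7 ± 9.7%), and 43.6 ± 9.7% in the FASTQ-made tables. The end of Vmp1 also holds the microRNA miR-21a, which is known to be abundant in stimulated macrophages and to have its own promoter within the gene. Its hairpin of 92 bases, at chr11:86584067-86584158 (minus strand), lies in the 3′ untranslated part of the last exon of Vmp1-201 and in no other of the 8 Vmp1 transcripts. Vmp1-206 ends 861 bases before it. The mature sequences from RefSeq (GRCm38.p6), with the seed (bases 2 to 8) in capitals, show which products that exon can carry:
mmu-miR-21a-5p: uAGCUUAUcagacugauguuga
mmu-miR-21a-3p: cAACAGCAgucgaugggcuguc
The gene entry for the hairpin, Mir21a, is listed at 0 counts in all 3 libraries. Polyadenylated libraries with a size range of 250 to 400 do not measure a mature microRNA, so this says nothing of its level.

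**Figure D3:**
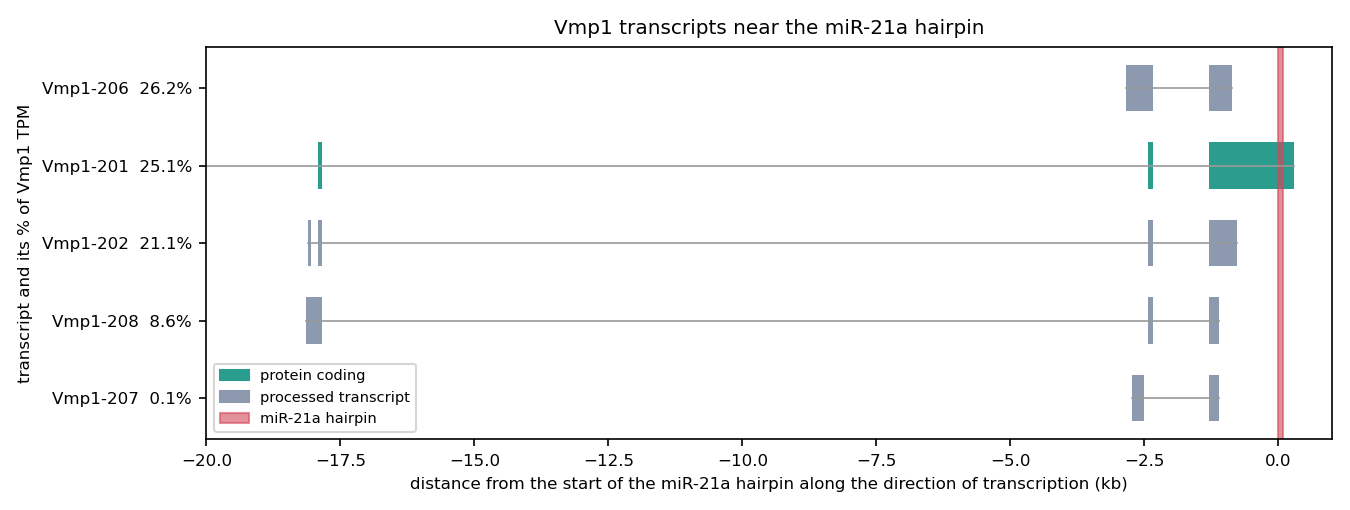
Exons (boxes) of the 5 Vmp1 transcripts that reach within 20 kb of the miR-21a hairpin, by distance in kb along the direction of transcription, each with its mean percent of Vmp1 TPM. Vmp1-206, at 26.2%, ends before the hairpin, and Vmp1-201, at 25.1%, is the 1 transcript drawn through it.

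Conjugation enzymes act in a chain. ATG7 is the activating enzyme, ATG3 and ATG10 are transfer enzymes, ATG12, ATG5 and ATG16L1 form the ligase that places ATG8 proteins on lipid, and the ATG4 proteases trim ATG8 proteins before and release them after. Summed over the 9 genes, the group took 238, 240 and 239 TPM. The highest was Atg3, at 52.4, 53.5 and 50.5 TPM (mean 52.1 ± 1.6, SD, n = 3), and the lowest Atg4c, at 4.43, 6.48 and 3.71 TPM (mean 4.87 ± 1.44). Atg12 was the steadiest of all 40 genes in the alignment tables, at 26.4, 26.2 and 26.2 TPM, a highest over lowest replicate of 1.01. It was not the steadiest in the FASTQ-made tables, where Atg12 was at 17.7, 23.1 and 26.3 TPM, a ratio of 1.49. Its ligase partners Atg5 and Atg16l1 were at 32.1 ± 2.4 and 20.3 ± 2.1 TPM, and Atg7 was at 30.8 ± 2.5 TPM. The log2 ratio of Atg12 to Atg5 was -0.40, -0.22 and -0.24, a mean of -0.29 ± 0.10. This sign depends on dividing by transcript length: the same ratio in expected counts was 0.82 ± 0.11. Atg3 was 4.88-fold above Atg10, with log2 ratios of 2.27, 2.32 and 2.28. Among the proteases, Atg4b (38.6 ± 5.8 TPM), the form with the broadest activity on ATG8 proteins, exceeded Atg4a (23.0 ± 2.3 TPM), and Atg4a exceeded Atg4c by 4.83-fold. The order of Atg4b and Atg4a counts all annotated transcripts. Atg4b-201, with the longest coding sequence of Atg4b, was at 9.47, 12.16 and 13.33 TPM. Atg4a-201, the leading transcript of Atg4a, was higher, at 23.35, 21.66 and 20.32 TPM. The order thus does not carry over to these 2 transcripts. Atg4a shares 60.8% of its 31-base sequences with the gene Atg4a-ps, listed at 0.340 TPM. Reads within these sequences cannot be assigned by sequence alone, and how far this affects the Atg4a count was not measured.

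Atg16l1 appeared mainly in a form without 1 coding exon. Atg16l1-202, which lacks this exon of 57 bases at chr1:87774813-87774869 (mm10, plus strand), held 51.7%, 64.1% and 62.8% of the gene's TPM, and Atg16l1-201, which has it, 30.5%, 25.3% and 27.5%. The 57 bases keep the reading frame (1821 against 1764 coding bases). The exon is shown in capitals between 15 spliced bases on each side, since it is the whole difference between the coding sequences of the 2 forms:
Atg16l1-201 exon: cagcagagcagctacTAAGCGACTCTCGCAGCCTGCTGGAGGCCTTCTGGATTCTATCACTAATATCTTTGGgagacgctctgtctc
All transcripts holding the exon carried 35.8%, 27.9% and 28.3% of the gene's TPM, and those that skip it 53.8%, 64.1% and 65.0%. In the FASTQ-made tables these shares were 32.7 ± 3.5% with the exon and 55.3 ± 6.0% without it (SD, n = 3). The form without the exon was the higher in every replicate of both kinds of table.

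ATG8 proteins are the ubiquitin-like tags that the enzymes above attach to the membrane. One gene dominated the family. Gabarap was at 677, 816 and 859 TPM (mean 784 ± 95, SD, n = 3), lowest in replicate 1, and made up 76.8%, 79.2% and 78.6% of the summed TPM of the 5 genes. Gabarapl1 was at 66.9, 82.0 and 91.2 TPM (mean 80.0 ± 12.3). Map1lc3b (LC3B), the usual marker of autophagosomes, was at 73.9, 71.2 and 80.4 TPM (mean 75.2 ± 4.7). The values of Gabarapl1 and Map1lc3b overlapped, so their order is not resolved. Gabarapl2 was at 49.7, 49.7 and 47.3 TPM (mean 48.9 ± 1.4), below both without overlap, and Map1lc3a (LC3A) was the lowest, at 14.6, 10.8 and 15.1 TPM (mean 13.5 ± 2.4). Gabarap exceeded Map1lc3b by 10.4-fold, with log2 ratios of 3.19, 3.52 and 3.42. It exceeded Gabarapl1 by 9.83-fold and Gabarapl2 by 15.9-fold. Map1lc3b exceeded Map1lc3a by 5.62-fold. In the FASTQ-made tables the share of Gabarap was 72.3 ± 2.1%, and the log2 ratio of Gabarap to Map1lc3b was 2.80 ± 0.21. Of the 31-base sequences of Gabarapl2, 15.2% also occur elsewhere, mostly in the processed pseudogene Gm3724 at 1.72 TPM.

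**Figure D4:**
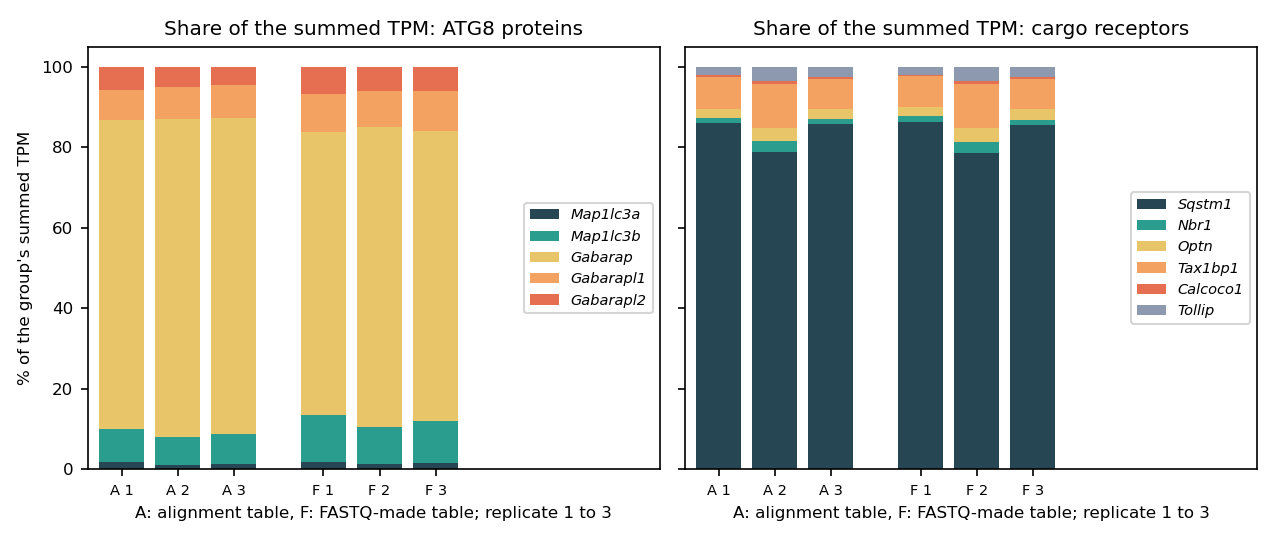
Share of the summed TPM of the 5 ATG8 genes (left) and the 6 cargo receptors (right) taken by each gene, as stacked bars from 0 to 100%, in replicates 1, 2 and 3 of the alignment tables (A) and of the FASTQ-made tables (F). Gabarap takes 76.8% to 79.2% of the ATG8 sum and Sqstm1 78.9% to 86.0% of the receptor sum in the alignment tables.

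The Gabarap level itself was divided between 2 coding transcripts. Gabarap-201 held 56.3%, 57.2% and 56.9% of the TPM and Gabarap-202 39.8%, 37.8% and 36.8%. Gabarap-202 lacks 94 bases of an exon, at chr11:69992582-69992675 (mm10, plus strand), which does not keep the frame (351 against 318 coding bases). The missing part is shown in capitals between 15 spliced bases on each side, because it separates the transcript for the full protein from the other:
Gabarap-201 exon part: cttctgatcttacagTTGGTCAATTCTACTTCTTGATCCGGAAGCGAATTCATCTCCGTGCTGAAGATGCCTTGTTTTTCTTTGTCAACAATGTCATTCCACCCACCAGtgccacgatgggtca
The FASTQ-made tables did not give the same division. There transcripts without these bases held 32.0%, 12.5% and 3.29% in replicates 1, 2 and 3, against 39.8%, 37.8% and 36.8% in the alignment tables. The 2 kinds of table thus do not resolve the level of the shorter form. Map1lc3a was also divided, with the coding Map1lc3a-201 at 65.4%, 59.7% and 47.2% and the processed transcript Map1lc3a-203 at 34.6%, 40.3% and 52.8%, and here the FASTQ-made tables gave a like mean for the coding form (59.4%).

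Cargo receptors link ubiquitinated or other cargo to ATG8 proteins, and 1 of them, Sqstm1, exceeded the rest by far. Sqstm1 was at 1914, 958 and 1772 TPM (mean 1548 ± 515, SD, n = 3), from 54063, 43954 and 82918 expected counts. Replicates 1 and 3 were close, and replicate 2 was lower. Sqstm1 nonetheless exceeded 99.3% of the expressed protein-coding genes by its mean, and it held 86.0%, 78.9% and 85.8% of the summed TPM of the 6 receptors. Tax1bp1, a receptor that also restrains NF-kappaB signalling with A20, followed at 179, 132 and 153 TPM (mean 155 ± 24, SD, n = 3). Sqstm1 exceeded Tax1bp1 by 9.65-fold, with log2 ratios of 3.41, 2.86 and 3.53. Tollip, which also binds interleukin 1 and Toll-like receptors, was at 46.0, 43.1 and 51.5 TPM (mean 46.9 ± 4.3). Optn (optineurin), a receptor for mitochondria and bacteria, was at 48.0, 40.1 and 52.0 TPM (mean 46.7 ± 6.1), so Tollip and Optn overlapped. Nbr1, which acts with SQSTM1 in aggregates, was at 30.4, 33.1 and 27.4 TPM (mean 30.3 ± 2.9), and Sqstm1 exceeded it by 49.0-fold. Calcoco1, a receptor for endoplasmic reticulum and Golgi, was the lowest, at 7.57, 8.11 and 9.08 TPM (mean 8.25 ± 0.77). Tax1bp1 exceeded Optn by 3.31-fold, with log2 ratios of 1.90, 1.72 and 1.56.

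Sqstm1 also had the largest spread between replicates of the 40 genes. Its highest replicate was 2.00-fold above its lowest by TPM, 2.03-fold by CPM (counts scaled to library size) with TMM factors, and 2.06-fold in the FASTQ-made tables. Without replicate 2 the ratio was 1.08. Replicate 2 is the library where the summed neutrophil markers were at 108 TPM, against 12.5 and 11.0 TPM in the others; the part of this in the Sqstm1 difference was not tested. The opposite-strand gene Mrnip shares 17.3% of the annotated exonic bases of Sqstm1 and was at 0.253 TPM.

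Between replicates, 3 of the 40 genes differed by over 1.5-fold in TPM, against 22.4% of the expressed protein-coding genes. They were Sqstm1, Atg4c (1.75-fold, highest in replicate 2) and Rb1cc1 (1.53-fold, highest in replicate 1). In CPM the 3 were Sqstm1, Atg4c and Tfeb (1.56-fold), against 19.1% of the expressed protein-coding genes, and Rb1cc1 was at 1.40-fold. The median ratio of highest to lowest replicate over the 40 was 1.21, near the 1.27 of expressed protein-coding genes. Leaving out replicate 2 left 1 gene over 1.5-fold (Rb1cc1), leaving out replicate 3 left Sqstm1 alone, and leaving out replicate 1 left Sqstm1 and Atg4c. In the FASTQ-made tables, 16 of the 40 exceeded 1.5-fold, against 46.6% of the expressed protein-coding genes, and 31 of the 40 were lowest in replicate 1, against 74.4% of the expressed protein-coding genes. By TPM of the alignment tables, 11 of the 40 were lowest in replicate 1, against 39.4%.

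**Figure D5:**
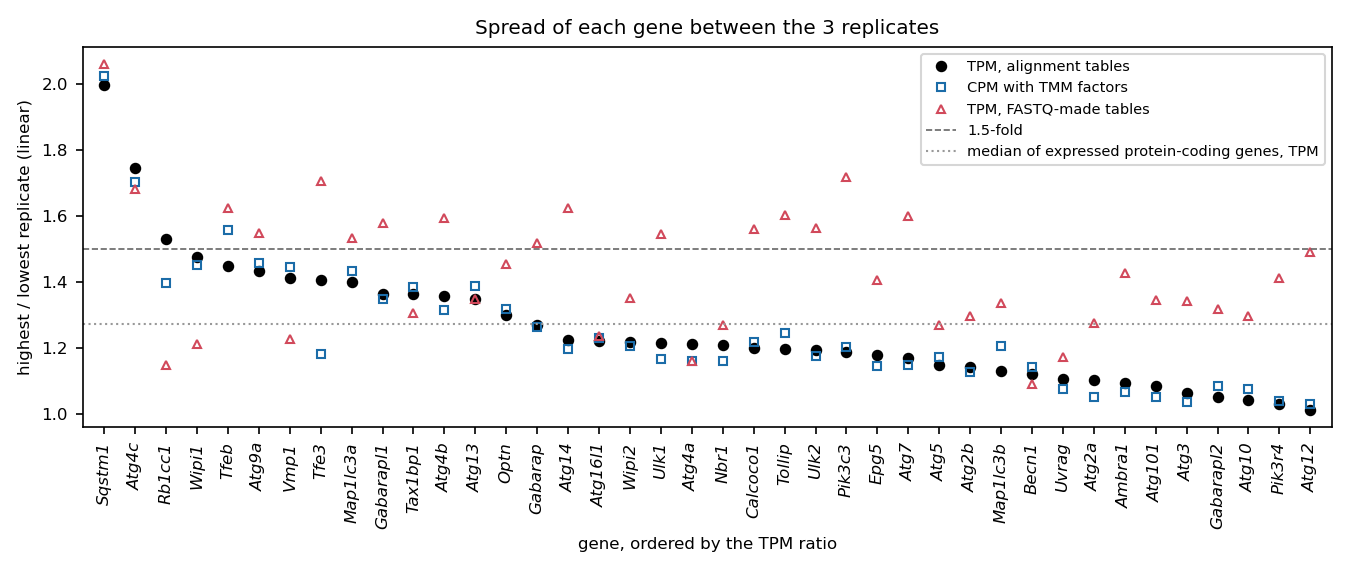
Highest over lowest replicate (linear axis) for each of the 40 genes, by TPM of the alignment tables, by CPM with TMM factors and by TPM of the FASTQ-made tables, with lines at 1.5-fold and at the median of expressed protein-coding genes, 1.27. Sqstm1 is highest at 2.00, and the FASTQ-made tables place 16 genes above 1.5.

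TFEB and TFE3 are transcription factors of the MiT family that activate lysosomal and autophagy genes when released from mTORC1. Tfe3 was at 67.5, 94.9 and 73.8 TPM (mean 78.7 ± 14.3, SD, n = 3) and Tfeb at 9.11, 11.3 and 7.81 TPM (mean 9.41 ± 1.76). Tfe3 exceeded Tfeb by 8.38-fold, with log2 ratios of 2.89, 3.07 and 3.24, and both were highest in replicate 2. Tfe3 TPM was spread over several coding transcripts, led by Tfe3-204 at 33.4%, 28.7% and 28.9% and Tfe3-205 at 19.6%, 23.6% and 32.8%. Tfe3-205 lacks an exon of 105 bases at chrX:7767893-7767997 (mm10, plus strand), which keeps the frame. The exon is shown in capitals between 15 spliced bases on each side, as the coding stretch that differs between the leading forms:
Tfe3-204 exon: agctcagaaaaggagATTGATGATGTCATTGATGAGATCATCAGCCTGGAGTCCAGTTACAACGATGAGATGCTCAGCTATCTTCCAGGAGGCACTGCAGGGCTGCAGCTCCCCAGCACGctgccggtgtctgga
Transcripts with the exon held 65.4%, 50.6% and 53.5% of Tfe3 TPM and transcripts that skip it 19.6%, 23.6% and 32.8%; in the FASTQ-made tables these were 71.3 ± 2.7% and 9.42 ± 2.85%. Forms with the exon were the higher in all 3 replicates of both kinds of table. Tfeb was led by Tfeb-202 at 56.3 ± 3.2%. Epg5, which tethers autophagosomes to late endosomes and lysosomes, was at 4.38, 4.76 and 4.04 TPM (mean 4.39 ± 0.36). Its mean was the lowest of the 40 in the alignment tables, but its values overlapped those of Atg2b and Atg4c, and in the FASTQ-made tables Atg2b was the lowest (3.12 against 3.72 TPM), so the order at the bottom is not resolved.

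TFEB and TFE3 bind E-box sequences, of which CACGTG is the core. This hexamer, its own reverse complement, was looked for in RefSeq promoter windows (GRCm38.p6) from 250 bases before to 50 bases after the start. Of the 33 genes with a window, 4 held it (12.1%), against 8.09% of 27025 genes: Atg3 (2 matches), Atg5, Atg7 and Atg14. For Atg7 the RefSeq start is 27999 bases from that of the leading transcript, and for the other 3 genes it is 0 to 44 bases from it. The windows of those 3 are shown, with the hexamer in capitals, because they lie at the start of the transcript that was measured. They are at chr10:44268308-44268347 (plus strand), chr14:47568413-47568452 (minus strand) and chr16:45158718-45158757 (plus strand):
Atg5: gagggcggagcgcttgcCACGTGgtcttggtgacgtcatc
Atg14: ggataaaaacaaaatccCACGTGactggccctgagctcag
Atg3: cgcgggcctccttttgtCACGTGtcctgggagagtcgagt
A match is a description of the letters and does not show binding.

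Across the 40 genes, 15 had a leading transcript with under 60% of the gene's TPM, against 28.8% of the expressed protein-coding genes, and 14 had one above 90%. The 15 were Rb1cc1, Becn1, Pik3r4, Ambra1, Atg2b, Atg9a, Vmp1, Atg4b, Atg7, Atg16l1, Map1lc3a, Gabarap, Nbr1, Tfeb and Tfe3. The median share of the leader was 82.1%, against 79.8% over expressed protein-coding genes. For 4 of the 40 the 2 kinds of table named different leaders, against 9.42% of the expressed protein-coding genes. These were Rb1cc1 (Rb1cc1-201 against the processed transcript Rb1cc1-202), Atg2b (Atg2b-203 against Atg2b-201), Atg4b (Atg4b-201 against Atg4b-203) and Atg4c (Atg4c-203 against Atg4c-201). The last pair has the same coding sequence. The leader of Atg4b is not resolved within either kind of table. In the alignment tables Atg4b-203 was highest in replicate 1, at 34.5%, and Atg4b-209 in replicate 3, at 44.1%. In the FASTQ-made tables the means of Atg4b-203 and Atg4b-201 were 22.6% and 22.4%. For Atg9a, 3 transcripts with 1 coding sequence held 87.9 ± 0.5% (SD, n = 3) of the TPM, although the leader, Atg9a-205, held 52.8%. Likewise, 3 Atg7 transcripts with 1 coding sequence, led by Atg7-201 at 53.1%, held 75.1 ± 6.2%. In both genes most of the TPM thus fell on transcripts with 1 coding sequence.

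All Ambra1 TPM fell on coding transcripts, and Ambra1-203 led at 55.5%, 38.5% and 45.3%. Relative to Ambra1-203, the form Ambra1-201 lacks an exon of 87 bases at chr2:91805024-91805110 (mm10, plus strand) that keeps the frame. Transcripts with this exon held 89.3%, 72.2% and 71.7% of Ambra1 TPM, and 85.5 ± 8.0% in the FASTQ-made tables. Pik3r4 had retained-intron transcripts at 45.4 ± 3.5% of its TPM, beside the coding leader Pik3r4-201 at 47.7 ± 5.0%; in the FASTQ-made tables the coding share was 79.3 ± 6.9%. Nbr1 was led by Nbr1-206 at 33.6 ± 4.7%, with transcripts annotated for nonsense-mediated decay at 19.6 ± 4.3%.

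Of 59 further autophagy genes in 5 lists, 54 were expressed, and the median log2(TPM + 1) over the 59 was 4.61 ± 0.06 (SD, n = 3). Of the 54 expressed genes, 4 differed by over 1.5-fold in TPM between replicates, against 22.4% of the expressed protein-coding genes. Of 9 further core factors, 8 were expressed, and Sh3glb1, a membrane-bending partner of Beclin 1, was highest at 305 ± 34 TPM. Atg9b, the paralog of Atg9a, was the 1 below 1 TPM, at 0.447 ± 0.247 TPM. Of 16 selective receptors and their regulators, 14 were expressed. Ncoa4, the receptor for ferritin, was highest at 235 ± 15 TPM, and Calcoco2 (NDP52) is listed at 0 in all 3 replicates. All 14 genes of fusion with lysosomes were expressed, from the SNARE Vamp8 at 449 ± 21 TPM to the autophagosomal SNARE Stx17 at 6.75 ± 0.35 TPM. Of 13 genes of mTORC1 and AMPK control, which hold back or start the ULK complex, 11 were expressed. Rheb, the activator of mTORC1, was highest at 73.0 ± 8.1 TPM, and Prkaa2, 1 of the catalytic subunits of AMPK, lowest at 0.0800 ± 0.0100 TPM. All 7 genes of transcriptional control were expressed, from Mitf, a relative of Tfeb, at 50.7 ± 1.4 TPM to Foxo3 at 5.41 ± 0.43 TPM.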

How the data were processed

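Per the file headers, the deposited alignment tables hold expected counts, TPM and transcript shares in percent, and the FASTQ-made tables hold estimated counts and TPM. Per the labels and deposited file lists they use mm10 and annotation M21. Which programs made them is not given in the sources used here. Genes were matched to GENCODE M21. The only other row with counts, the phage phiX174, held 0.178%, 0.107% and 0.115% and was left out.

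Levels are the deposited TPM, and medians use log2(TPM + 1). For CPM, expected counts were rounded, filtered and scaled by TMM (0.982, 1.03 and 0.992) in edgeR 4.0.16, with R 4.3.3; DESeq2 1.42.0 size factors were an alternative. Transcript percents were recomputed from TPM and differed from the deposited ones by at most 0.132. Ratios were tested by exact sign-flip permutation (scipy 1.17.1).

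Values in every replicate are given for ATG8 genes, cargo receptors, the highest and lowest gene of each other role, and genes over 1.5-fold between replicates. Genes with a leading transcript under 60%, not coding or differing between tables have it named; each further list has its highest and lowest gene named. Other names were added after values were seen. The 40 genes, the lists, ratios and alternatives were chosen with earlier results of these data known.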

Additional observations from a re-analysis of the deposited data

How the results depend on the processing

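The 4 differences between steps kept their sign under each alternative run: a pseudocount of 0.1, FASTQ-made tables, genes with a mean of at least 1 TPM, means of members, leaving out 3 genes that share at least 10% of their 31-base sequences, other step definitions, and leaving out each replicate. The limit of 1 TPM removed none of the 40 genes, so that run could change nothing. None of the 3 sequence-sharing genes is in initiation or cargo receptors, so leaving them out could not change that difference. Some of the 4 differences moved by more than 1 SD between replicates. Initiation minus conjugation enzymes was -0.52 by means of members, -0.91 without the sequence-sharing genes and -1.06 with ATG8 proteins added to conjugation. By means of members, initiation minus cargo receptors was -2.16 and conjugation enzymes minus cargo receptors -1.64. In FASTQ-made tables initiation minus ATG8 proteins was -2.47 and the median of the 40 genes 4.30. With all annotated transcripts counted, the log2 ratio of Atg14 to Uvrag was -2.23 there. Of the single-gene ratios, Atg12 to Atg5 reversed, to 0.82, in expected counts not divided by length; the other ratios kept their sign in every alternative run. The count of genes over 1.5-fold between replicates was 16 in FASTQ-made tables and 1 to 2 without each replicate in turn; at 2-fold it was 0 in TPM of the alignment tables, where Sqstm1 lies just under that threshold (it was at 2.03 by CPM and 2.06 in FASTQ-made tables). The count of leading transcripts under 60% was 9 at a threshold of 50%. Causes of these changes beyond their construction were not tested. No paired analysis was possible because there is 1 group.

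Lowly expressed genes have the fewest counts (Atg4c 191, 443 and 257), and transcript shares depend on how each method divides shared reads. Of the 40 genes, 14 overlap a gene on the opposite strand, 11 of them in exons, and for 3 of these the partner is at 1 TPM or more (Atg2b, Atg9a and Map1lc3b). In bulk RNA, fewer expressing cells and less RNA per cell cannot be told apart.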
